A study of Mus musculus with 18 samples.

Results

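The mouse alpha-globin locus on chromosome 11 was examined through the columns of an enhancer capture that carry the name Hba. The regions described are all 1584 DpnII fragments that overlap a fixed window of 700 kb around the genes, spanning chr11:31899867-32600176 of the mm9 build, out of 627505 fragments listed for the enhancer capture. NG Capture-C joins neighbouring DNA in crosslinked nuclei after digestion with DpnII, which cuts at GATC, and enriches the junctions that involve chosen fragments, called the viewpoint. The fragments joined to the viewpoint are then counted, and each count is an interaction. Of the 1584 fragments, 1517 had at least 1 read in the 9 libraries, 17 lay in the viewpoint zones and 50 had no read.

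The libraries came from 3 cell types with 3 biological replicates each. Embryonic stem cells (ESC) of strain 129/Sv//EV were kept with LIF on gelatin and are labelled day 0. Definitive endoderm (DE), the germ layer that forms gut, liver and pancreas, was made from ESC of this strain over 5 days as embryoid bodies without LIF, with Activin A and EGF added from day 2. Erythrocytes, labelled PHS, came, on day 5, from the spleens of C57BL/6 mice treated with phenylhydrazine, which destroys red cells and so fills the spleen with their precursors, and were not sorted further in the protocol. The labels give no genotype beyond the strain, and do not say whether each erythrocyte library came from a separate mouse. Every contrast with erythrocytes is therefore also a contrast between strains, and cell type and strain cannot be told apart. The libraries hold no expression data, so the labelled cell types could not be checked against marker genes.

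Adult red cells make haemoglobin from 2 nearly identical alpha-globin genes, Hba-a1 and Hba-a2. Their strongest known regulators lie upstream, mostly in introns of the neighbouring gene Nprl3, and are called HS elements, with a number for their distance in kb from the start of the embryonic gene Hba-x. HS-26 is the counterpart of the main human alpha-globin enhancer. In red cells GATA1 binds several of the elements, and the locus is known to fold so that enhancers and globin genes meet.

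The data went against the name enhancer viewpoint. In such files a viewpoint shows as a stretch without values, since it cannot be counted against itself. The 2 longest stretches without a read in the window were chr11:32182317-32184781, with 8 fragments and 2.465 kb, and chr11:32194990-32197598, with 9 fragments and 2.609 kb. The first holds Hba-a1 (chr11:32183511-32184465, + strand) and the second holds Hba-a2 (chr11:32196489-32197301, + strand). The third longest stretch was 212 bases. Of the 13 zone fragments that can hold a stretch of 50 bases, 6 had over 50% of such stretches repeated in the window. Outside the zones, from Hba-x to just past Hbq1a, this was 1 of 40. Whether repeated sequence adds to the missing values was not tested. No fragment of the HS elements fell in a zone, and both zones were equally empty of values in the promoter capture. The samples' labels name Hba-1 and Hba-2 among the regions analysed for both captures. The columns are therefore called the Hba viewpoint of the enhancer capture here, and report what the Hba-a genes met. Contact with Hba-a1 and with Hba-a2 could not be measured, because all 5 fragments of each gene lie within the zones.

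The 2 zones belong to 1 set of columns, so contact of the 2 copies is reported as a sum. The 150 bases before the annotated start of Hba-a1, chr11:32183361-32183510, recur without a mismatch at chr11:32196178-32196327, which ends 161 bases before the annotated start of Hba-a2. The stretch is printed once, from the + strand of mm9, with a match to a GATA motif in capitals.
Hba-a1 and Hba-a2: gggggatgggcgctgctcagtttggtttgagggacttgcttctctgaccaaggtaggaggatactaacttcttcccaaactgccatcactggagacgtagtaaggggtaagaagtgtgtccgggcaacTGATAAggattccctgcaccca

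Sequence is shown for the HS-31 and HS-26 fragments that were among the largest single-fragment rises in erythrocytes, and for HS-8, the element nearest to the viewpoint, as a stretch of at most 300 bases of 1 fragment each. The motifs searched, letters bound by GATA factors, were AGATAA on both strands of the sequence, likewise AGATAG on both strands, the variant TGATAA on both strands and, as the last of them, TGATAG on both strands. Overlapping matches were each counted. Capitals mark the matches. The HS-31 stretch is chr11:32145662-32145961, the HS-26 stretch chr11:32149210-32149509, both inside introns of Nprl3, and the HS-8 stretch is chr11:32169002-32169301, upstream of the Nprl3 start. All are from the + strand of mm9.
HS-31: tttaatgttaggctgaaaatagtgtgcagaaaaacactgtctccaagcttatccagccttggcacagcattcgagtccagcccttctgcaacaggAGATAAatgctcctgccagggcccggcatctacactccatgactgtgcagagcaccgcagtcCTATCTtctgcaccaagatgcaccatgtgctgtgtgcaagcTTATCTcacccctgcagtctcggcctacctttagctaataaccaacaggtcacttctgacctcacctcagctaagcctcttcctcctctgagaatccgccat
HS-26: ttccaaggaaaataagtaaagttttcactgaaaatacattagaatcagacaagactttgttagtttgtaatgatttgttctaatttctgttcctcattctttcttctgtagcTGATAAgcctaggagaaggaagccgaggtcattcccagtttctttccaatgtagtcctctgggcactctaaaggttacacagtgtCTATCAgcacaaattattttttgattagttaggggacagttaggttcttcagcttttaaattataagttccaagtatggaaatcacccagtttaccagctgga
HS-8: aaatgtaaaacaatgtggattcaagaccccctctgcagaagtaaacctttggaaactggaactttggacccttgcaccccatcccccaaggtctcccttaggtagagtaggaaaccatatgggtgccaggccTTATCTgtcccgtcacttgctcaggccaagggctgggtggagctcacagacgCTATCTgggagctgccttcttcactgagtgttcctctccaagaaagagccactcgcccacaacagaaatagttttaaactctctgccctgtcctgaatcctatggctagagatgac

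For contrast, chr11:32269855-32270154 is a stretch of an intronic Sh3pxd2b fragment whose contact was among the largest falls in erythrocytes.
Sh3pxd2b: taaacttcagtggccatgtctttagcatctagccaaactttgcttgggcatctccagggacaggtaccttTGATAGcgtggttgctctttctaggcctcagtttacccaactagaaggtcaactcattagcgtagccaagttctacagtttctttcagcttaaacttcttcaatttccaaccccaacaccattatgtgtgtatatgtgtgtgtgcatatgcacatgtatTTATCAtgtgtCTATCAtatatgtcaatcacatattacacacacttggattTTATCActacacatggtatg

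The shortest fragment among the largest rises was the whole of chr11:32146861-32146902 in an Nprl3 intron, which has no match.
Nprl3 intron: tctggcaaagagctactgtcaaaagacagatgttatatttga

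Matches to these letters were common across the window and were not a property of the elements alone. The HS-31 fragment held 4 matches, and 22.5% of the 191 window fragments within 1.5-fold of its length held at least as many. The HS-26 fragment held 2, as did at least 35.0% of 394 fragments of like length, and the HS-8 fragment held 2, against 36.5% of 381. The Sh3pxd2b fragment held 4 matches, a number reached by 11.1% of 334 fragments. The 24 fragments of the 5 elements had 2.48 matches per kb, and all fragments of the window had 1.93.

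Depth was uneven between the cell types. The Hba viewpoint drew 31470 to 62021 reads per ESC library, 89886 to 172611 per DE library and 27580 to 93440 per erythrocyte library. Of these, 12470 to 27016, 29043 to 59018 and 5865 to 13772 lay in the window. The erythrocyte libraries stood apart from each other. Chromosome 11 held 27.9%, 72.0% and 26.7% of the reads of erythrocyte replicates 1, 2 and 3, against 65.2% to 72.5% in ESC and 63.5% to 65.8% in DE. The widest 95% Wilson interval of these shares, that of erythrocyte replicate 2, ran from 71.5% to 72.5% and covers counting error only. Values were therefore set to 100000 interactions on chromosome 11 in each library, and results that rest on one erythrocyte library are given without it. What set replicates 1 and 3 apart from replicate 2 was not tested.

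In erythrocytes, a larger share of the window's contact lay around the globin genes and over Nprl3. The segment from Nprl3 to Hbq1a held 73.0%, 76.4% and 85.9% of the window's interactions in the 3 erythrocyte libraries. It held 46.5%, 43.6% and 46.0% in ESC and 45.5%, 44.9% and 45.6% in DE. The 3 erythrocyte libraries lay above all 6 others, with means of 78.4% ± 6.71 (SD, n = 3) against 45.4% ± 1.55 and 45.3% ± 0.428. The exact two-sided permutation test gave p = 0.1 for each, the smallest value that 3 against 3 libraries allow. ESC and DE overlapped.

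Part of this gain in share lay in the zone around the globin genes, which contains the viewpoint. In it Hba-a1 and Hba-a2 have no value. Shares of the window's interactions also rise when contact elsewhere in the window falls, so they do not show more contact by themselves. Of interactions on all chromosomes, the whole window held 14.7%, 44.0% and 17.4% in the 3 erythrocyte libraries. It held 39.6% to 46.1% in ESC and 32.3% to 34.2% in DE. Hba-x, Hbq1b and Hbq1a did not pass the test described below at the scaling used here. The globin zone from Hba-x to Hbq1a held 39.5%, 34.7% and 57.2% of window interactions in erythrocytes, 28.4%, 25.8% and 28.5% in ESC, and 27.2%, 27.0% and 28.1% in DE. Erythrocyte replicate 3, the shallowest in the window, was the highest by far. The Nprl3 gene held 26.4%, 32.4% and 22.3% in erythrocytes, where replicate 3 was the lowest, against 11.6% to 11.8% in ESC and 11.5% to 12.2% in DE. Each share was higher in all 3 erythrocyte libraries than in any other library, at the smallest p of 0.1 in the exact permutation test. The sequence downstream of Hbq1a fell from 35.2% ± 0.719 in ESC and 34.2% ± 0.436 in DE to 12.4% ± 3.25 in erythrocytes, and the sequence upstream of Nprl3 from 19.4% ± 0.918 and 20.4% ± 0.139 to 9.13% ± 3.47, without overlap and again at the smallest exact permutation p of 0.1.

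The window as a whole did not behave in this way. It held 52.7%, 61.1% and 65.1% of chromosome 11 interactions in erythrocytes, 63.6%, 61.6% and 60.8% in ESC, and 51.5%, 52.0% and 50.9% in DE. Erythrocytes overlapped ESC (exact permutation p = 0.8) and lay above DE, and DE lay below ESC by 10.6 percentage points, both at the smallest exact permutation p of 0.1. Among interactions beyond 20 kb of the viewpoint, the window held 35.9% in erythrocytes, 47.4% in ESC and 36.9% in DE. There all erythrocyte libraries lay below ESC, at the smallest exact permutation p of 0.1, and overlapped DE (exact permutation p = 0.8).

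**Figure D1:**
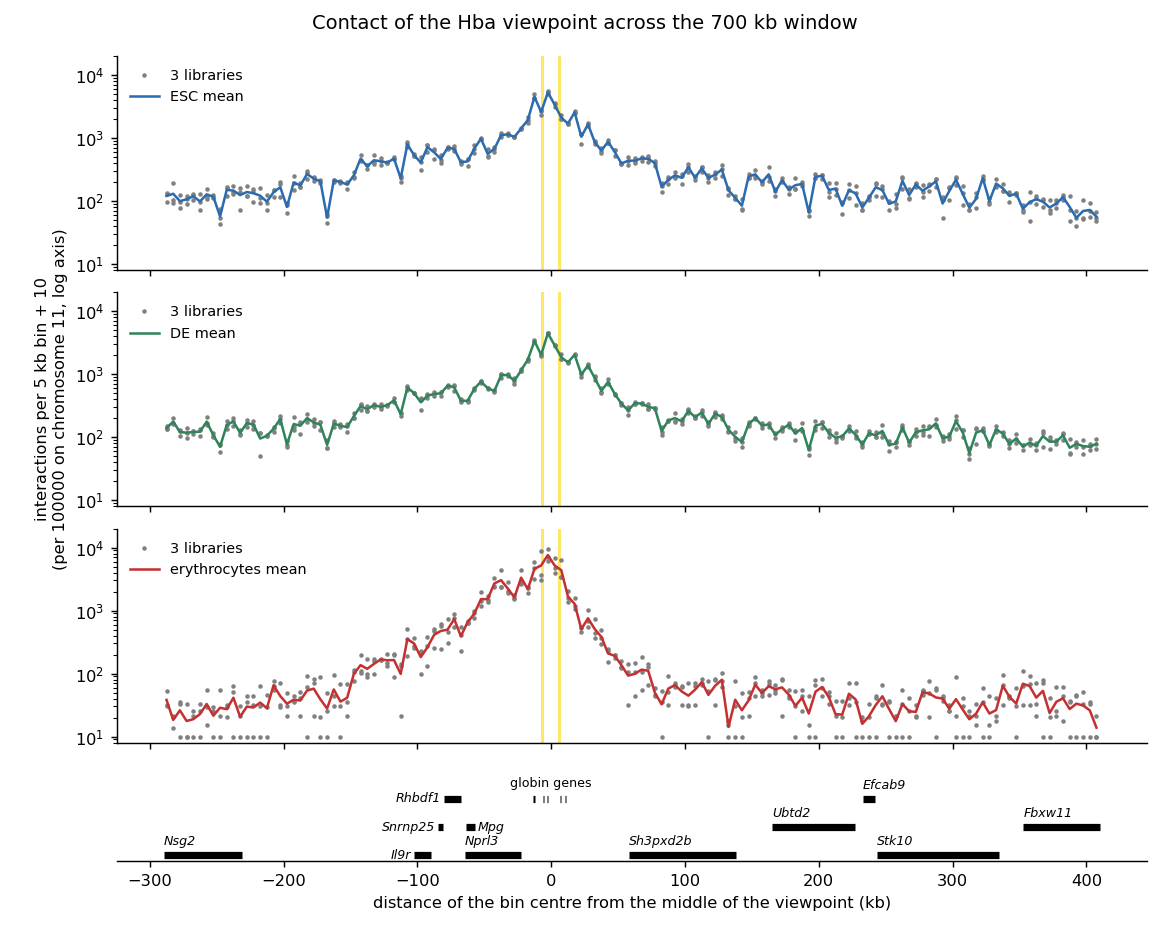
Interactions of the Hba viewpoint in 5 kb bins across the window, per 100000 on chromosome 11, on a log axis after adding 10; grey points are the 3 libraries of each cell type, coloured lines their means and yellow bars the zones without values. In erythrocytes the profile stands higher over Nprl3 and around the globin genes and falls away more steeply on both sides than in ESC or DE.

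All 5 upstream elements were contacted more often in erythrocytes than in ESC. Contact is given as interactions per 100000 on chromosome 11 over all fragments that overlap a window of 2 kb at the element's nominal distance. Tests used limma on log2 of the value plus 10, so differences are on that scale and understate the change of low values. A region was called at a Benjamini-Hochberg adjusted p under 0.05 over all gene regions, elements and 5 kb bins of chromosome 11 in the fit. In that fit 21.6% of 1217 features were called, 4.11% higher and 17.5% lower in erythrocytes. The elements lie in or beside Nprl3 and share reads with it, so they are not independent of the gene or of each other.

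HS-31 (chr11:32144385-32146566), in an intron of Nprl3, had 193, 146 and 171 interactions in ESC, 142, 158 and 123 in DE, and 747, 609 and 677 in erythrocytes. The groups of erythrocytes and of the other cells did not come near each other. The mean was 3.99-fold that of ESC (log2 difference 1.94, SE 0.33, adjusted p = 4.2e-04) and 4.82-fold that of DE (2.19, SE 0.25, adjusted p = 0.0071).

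HS-26 (chr11:32148903-32151881), which includes short exons of Nprl3, had 772, 820 and 731 interactions in ESC, 620, 603 and 547 in DE, and 1693, 3605 and 2376 in erythrocytes. Erythrocyte replicate 2, the library with the high chromosome 11 share, was the highest here, and the other two erythrocyte libraries still lay above every ESC and DE library. The means differed 3.30-fold from ESC (1.64, SE 0.26, adjusted p = 1.9e-04) and 4.34-fold from DE (2.03, SE 0.27, adjusted p = 0.012).

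HS-12 (chr11:32162767-32165528), whose span also overlaps an Nprl3 exon, had 170, 171 and 190 interactions in ESC, 175, 219 and 177 in DE, and 613, 629 and 577 in erythrocytes. These 3 values were the closest together of any element in erythrocytes. The rise was 3.43-fold over ESC (1.72, SE 0.33, adjusted p = 8.2e-04) and 3.19-fold over DE (1.63, SE 0.24, adjusted p = 0.015).

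HS-8 (chr11:32167266-32169411), which spans the start of Nprl3, had 516, 526 and 439 interactions in ESC, 454, 428 and 391 in DE, and 1065, 1717 and 1044 in erythrocytes. HS-21 (chr11:32154079-32156487) had 485, 480 and 405 in ESC, 443, 382 and 357 in DE, and 877, 1329 and 888 in erythrocytes. Both were higher in each erythrocyte library than in any other, with replicate 2 again on top. HS-8 rose 2.58-fold over ESC (1.32, SE 0.29, adjusted p = 0.0018) and 3.01-fold over DE (1.53, SE 0.25, adjusted p = 0.018). HS-21 had the smallest differences, 2.26-fold from ESC (1.14, SE 0.29, adjusted p = 0.0061) and 2.62-fold from DE (1.34, SE 0.25, adjusted p = 0.022).

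**Figure D2:**
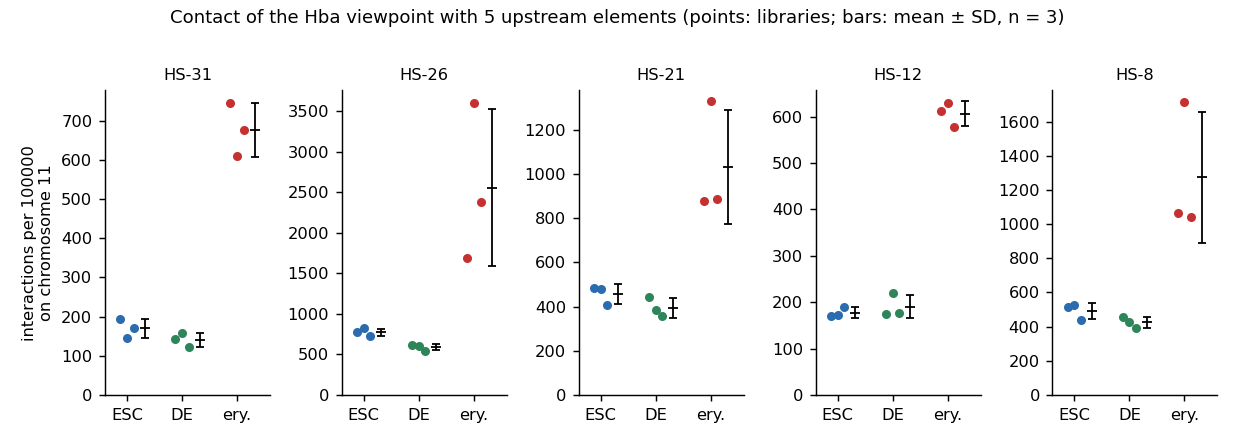
Contact of the Hba viewpoint with each of the 5 upstream elements, in interactions per 100000 on chromosome 11; points are libraries and bars the mean ± SD of 3. Every erythrocyte library (ery.) lies above every ESC and DE library at each element.

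The calls of all 5 elements held when any 1 erythrocyte library was left out, in both comparisons, and HS-21 lost its call against ESC without ESC replicate 3 (adjusted p = 0.0546). They were all lost when values were scaled to all interactions of the library, cis and trans, where the log2 differences from ESC were 1.07 for HS-31, 0.78 for HS-26, 0.28 for HS-21, 0.86 for HS-12 and 0.46 for HS-8. On that scale erythrocyte replicate 2 was the highest at each element. HS-31 and HS-12 stayed above every ESC library in all erythrocyte libraries. At HS-21, erythrocyte replicates 1 and 3 lay below every ESC library, and HS-26 and HS-8 were mixed. Against DE, TMM scaling also lost HS-21 (0.58), HS-12 (0.87) and HS-8 (0.76), and with no minimum of reads only HS-26 was called. Against ESC, HS-21 also lost its call with no minimum (adjusted p = 0.058) and without a trended variance (0.080).

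The elements also gained against their surroundings. The fragments from Nprl3 to Hba-x outside the elements had 239 ± 9.38 interactions per kb in ESC, 198 ± 3.77 in DE and 384 ± 71.9 in erythrocytes (SD, n = 3). Contact per kb with the 5 elements was 0.695 of that level in ESC, 0.702 in DE and 1.27 in erythrocytes. The ratio was 1.19, 1.35 and 1.28 in the 3 erythrocyte libraries and 0.657 to 0.731 in the other 6. This ratio does not depend on the scaling of a library. For HS-26 alone it was 1.09 in ESC, 0.997 in DE and 2.19 in erythrocytes, the highest of the 5. HS-8 followed with 0.962, 0.996 and 1.53, and HS-21 with 0.792, 0.824 and 1.11. HS-31 and HS-12 stayed below their surroundings per kb in erythrocytes, at 0.834 and 0.582, but rose from 0.325 and 0.269 in ESC. Each ratio was higher in the 3 erythrocyte libraries than in all others, at the smallest exact permutation p of 0.1. HS-31 and HS-12 each consist of only 2 long fragments, which offer few DpnII ends per kb. An effect of this on their ratios was not tested.

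Levels per kb gave the elements an order, but the elements held unlike numbers of DpnII fragments. HS-26 held 9, HS-8 4, HS-21 7, and HS-31 and HS-12 2 each. How far the number of fragments shapes the order was not tested. In erythrocytes HS-26 had 859 interactions per kb, HS-8 594, HS-21 431, HS-31 311 and HS-12 220. In ESC the order was HS-26 with 260, HS-8 with 230, HS-21 with 191, HS-31 with 77.9 and HS-12 with 64.1. In DE it differed, with 198 for both HS-26 and HS-8, 165 for HS-21, 68.9 for HS-12 and 64.5 for HS-31. The Nprl3 gene as a whole had 366 per kb in erythrocytes, 165 in ESC and 140 in DE.

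The embryonic and theta globin genes, the nearest neighbours of the viewpoint, showed no called difference between erythrocytes and either other cell type at the scaling used here. Against ESC, TMM scaling called Hbq1b (0.96, adjusted p = 0.027) and Hbq1a (1.08, adjusted p = 0.019) higher, and DESeq2 size factors called both and Hba-x (0.90, adjusted p = 0.019) higher. Against DE, size factors called Hbq1b higher (1.20, adjusted p = 0.018). Hba-x (chr11:32176400-32178116) encodes zeta-globin, the alpha-like chain of the embryo. It had 2185, 1909 and 2038 interactions in ESC, 1675, 1660 and 1530 in DE, and 1605, 2034 and 2365 in erythrocytes, overlapping both. The log2 difference was -0.05 from ESC (SE 0.22, adjusted p = 0.90) and 0.29 from DE (SE 0.18, adjusted p = 0.32). The theta-globin gene Hbq1b, which lies between the zones, had 1385 ± 148 in ESC, 1250 ± 89.5 in DE and 1910 ± 250 in erythrocytes (SD, n = 3). Hbq1a, just downstream of Hba-a2, had 1184 ± 62.2, 1186 ± 39.7 and 1818 ± 487. The erythrocyte libraries lay above all others for both theta genes, but the adjusted p was 0.16 and 0.089 against ESC and 0.064 and 0.088 against DE. Leaving out 1 library changed this for Hbq1a against ESC (adjusted p = 0.036 without erythrocyte replicate 2) and for Hbq1b against DE (0.034 without replicate 3). Of 22 alternatives, 9 called Hbq1a higher against ESC and 1 turned its sign. For Hbq1b against DE these numbers were 7 and 2.

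Upstream of Hba-x, the difference between erythrocytes and the other cells varied from gene to gene, and a role of distance was not tested. Nprl3, a subunit of the GATOR1 complex that restrains mTORC1, had 7394, 7265 and 7035 interactions in ESC, 6286, 6266 and 5843 in DE, and 13912, 19788 and 14490 in erythrocytes. At the scaling used here it was the only one of the 14 flanking protein-coding genes called higher, 2.22-fold over ESC (1.13, SE 0.14, adjusted p = 7.5e-06) and 2.62-fold over DE (1.37, SE 0.14, adjusted p = 0.0052). Against ESC the call was lost with all interactions as the total (0.26) and without a trended variance (adjusted p = 0.078), and against DE with all interactions (0.59) and with TMM scaling (0.59). With all interactions as the total, only erythrocyte replicate 2 lay above ESC. Mpg is a DNA repair glycosylase whose gene overlaps the 3' end of Nprl3. It had 693 ± 76.6 in ESC, 610 ± 27.5 in DE and 961 ± 159 in erythrocytes. At the scaling used here this was not called (0.46 and 0.64 on the log2 scale). Of 22 alternatives, 2 called Mpg higher against ESC and 1 turned its sign. The 2 were TMM (adjusted p = 0.037) and DESeq2 size factors (adjusted p = 0.0011). Against DE, 5 called Mpg higher and 2 turned its sign. The 5 were DESeq2 size factors (adjusted p = 0.015), DESeq2 (0.0039), a pseudocount of 2 (0.047), the minimum of 30 reads (0.027) and leaving out erythrocyte replicate 3 (0.040).

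Rhbdf1, an inactive rhomboid protease 60.0 kb from the viewpoint, and Snrnp25, a protein of the minor spliceosome 73.3 kb away, had similar contact in all cell types. Rhbdf1 had 1632 ± 98.7 interactions in ESC, 1547 ± 99.6 in DE and 1460 ± 471 in erythrocytes. Snrnp25 had 420 ± 58.7, 432 ± 33.8 and 422 ± 173. The erythrocyte libraries overlapped the others at both, and erythrocyte replicate 3 was the lowest of the 9, with 955 and 222. The log2 differences from ESC were -0.21 (SE 0.25) and -0.08 (SE 0.36), errors too wide to show that the levels were equal, and the sign turned under other scalings.

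Il9r, the interleukin 9 receptor gene at 82.0 kb, had 1333, 1608 and 1409 interactions in ESC, 1104, 1138 and 988 in DE, and 731, 695 and 333 in erythrocytes. Every erythrocyte library was below every other. Contact fell by 1.37 on the log2 scale from ESC (SE 0.30, adjusted p = 0.0019), and the difference from DE of -0.94 was not called (adjusted p = 0.073). The call against ESC was lost without ESC replicate 2 or 3 (adjusted p = 0.057 and 0.053), with TMM (-0.87, adjusted p = 0.076) and with DESeq2 size factors (-0.43, adjusted p = 0.30). The difference from DE was called under 7 of 22 alternatives. These were TMM (-1.71, adjusted p = 0.049), edgeR (-0.82), DESeq2 (-0.84), the minimum of 30 reads, the replicate number as a block and all 3 cell types in the fit. The last was leaving out erythrocyte replicate 3 (-0.59, adjusted p = 0.024). Nsg2, a gene of neuronal vesicle traffic at 223 kb, had 1142, 1311 and 1253 in ESC, 1439, 1421 and 1510 in DE, and 253, 166 and 122 in erythrocytes. The log2 difference was -2.77 from ESC (SE 0.33, adjusted p = 5.5e-06) and -3.00 from DE (SE 0.29, adjusted p = 0.0052), and it stayed called under all 22 alternatives in both.

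All 5 genes downstream of the globin cluster fell in erythrocytes against ESC. Sh3pxd2b, which encodes a podosome adaptor and starts 50.2 kb away, had 4436, 4805 and 4510 interactions in ESC, 3429, 3420 and 3485 in DE, and 1168, 997 and 455 in erythrocytes. The mean in ESC was 5.25-fold and in DE 3.94-fold that of erythrocytes. The log2 difference was -2.48 (SE 0.27, adjusted p = 1.7e-06) from ESC and -2.07 (SE 0.32, adjusted p = 0.016) from DE.

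Stk10, a kinase of lymphocytes at 236 kb, had 2567, 2847 and 2365 interactions in ESC, 1915, 2067 and 1913 in DE, and 578, 378 and 266 in erythrocytes. Ubtd2, at 158 kb, had 1916 ± 39.6, 1422 ± 11.8 and 398 ± 135. Both fell without overlap, with log2 differences of -2.71 and -2.30 from ESC and of -2.31 and -1.87 from DE. Efcab9, a gene of the sperm tail calcium channel, rested on few reads, with 288 in the ESC libraries, 555 in DE and 20 in erythrocytes. The log2 difference was -3.11 from ESC (SE 0.55, adjusted p = 4.8e-04) and -2.82 from DE (SE 0.63, adjusted p = 0.039), and the latter call was lost without any 1 of the DE libraries. Scaling beyond 20 kb (adjusted p = 0.070), DESeq2 size factors (0.088), a pseudocount of 2 (0.071) and no minimum of reads (0.43) also lost the call against DE. Fbxw11, the F-box gene at the downstream edge whose last part lies outside the window, had 829 ± 50.7, 824 ± 83.2 and 310 ± 217. It fell by 1.73 from ESC (SE 0.44, adjusted p = 0.0062). This call was lost without erythrocyte replicate 1 (adjusted p = 0.0501) or any 1 ESC library. TMM (-1.25, adjusted p = 0.074), DESeq2 size factors (-0.82, adjusted p = 0.23) and 10 kb bins (adjusted p = 0.057) also lost it. The difference of -1.72 from DE was not called (adjusted p = 0.075), but 7 of 22 alternatives called it. These were TMM (-2.45, adjusted p = 0.047), edgeR (-1.29), DESeq2 (-1.37), the minimum of 30 reads, the replicate number as a block and all 3 cell types in the fit. The last was leaving out erythrocyte replicate 3 (-0.95, adjusted p = 0.012).

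Of the 14 flanking genes, 8 were therefore called between erythrocytes and ESC, 1 higher and 7 lower, with a median log2 difference of -0.79. Over all features of that fit the median was -0.36. The balance depended on the scaling, with 4 higher and 5 lower with TMM (median -0.29), 6 higher and 5 lower with DESeq2 size factors (median 0.15), and 0 higher and 7 lower with all interactions (median -1.63). Nsg2, Sh3pxd2b, Ubtd2, Efcab9 and Stk10 were called lower under each of these. Between erythrocytes and DE, 6 were called, 1 higher and 5 lower, with a median of -0.54 against -0.31 over all features. Here TMM gave 0 higher and 7 lower (median -1.31), DESeq2 size factors 3 and 3 (median 0.049), and all interactions 0 and 5 (median -1.29). In that fit 5.22% of 3585 features were called, 0.865% higher and 4.35% lower. Both comparisons use the same erythrocyte libraries.

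**Figure D3:**
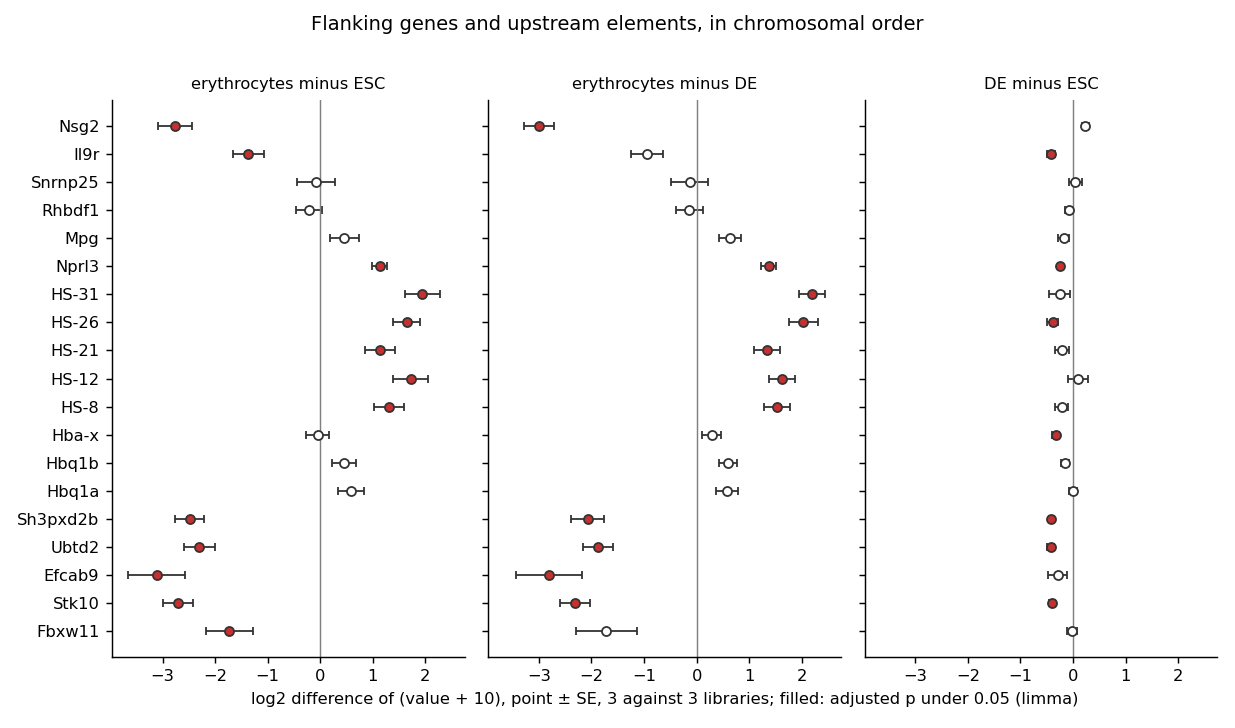
Log2 differences in contact of the Hba viewpoint for the 14 flanking genes and 5 upstream elements in chromosomal order, with the SE of limma; filled points passed an adjusted p of 0.05. Called rises in erythrocytes cover the elements and Nprl3, and called falls lie at Nsg2, Il9r and the genes from Sh3pxd2b onwards.

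The change of sign with position was also seen in 5 kb bins, of which the window holds 140. Between erythrocytes and ESC, 9 bins were higher, and all lay between chr11:32140001 and 32200000, from HS-31 to just past Hba-a2. The 107 lower bins lay outside that span, 36 upstream and 71 downstream. Over all features of that fit 4.11% were higher and 17.5% lower. The bins overlap the genes and elements above and belong to the same fit, so they are not further evidence. Their counts are for the scaling used here only. The largest rise was the bin chr11:32145001-32150000, which holds parts of HS-31 and HS-26. It had 666, 721 and 600 interactions in ESC, 557, 532 and 506 in DE, and 2332, 3263 and 2443 in erythrocytes, with log2 differences of 1.99 from ESC (adjusted p = 6.9e-06) and 2.30 from DE (adjusted p = 0.0044). Between erythrocytes and DE, 10 bins were higher, from chr11:32135001 to 32200000, and 52 were lower, where the fit as a whole called 0.865% higher and 4.35% lower.

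Single DpnII fragments gave the same picture at a finer grain but with less certainty. Of the 1584 fragments, 1239 had the minimum of 10 reads for the test between erythrocytes and ESC, and 433 of them (34.9%) were called, 41 higher (3.31%) and 392 lower (31.6%). Over all 1723 tested fragments of chromosome 11 the shares were 29.0%, 2.50% and 26.5%. As most tested fragments are the window's own, these shares are close by construction. The balance moved with the setting, to 67 higher and 255 lower with TMM, 0 and 604 with all interactions, 22 and 6 with no minimum of reads, and on the recovered reads 49 and 215 with edgeR and 39 and 58 with DESeq2. Of the 41 higher fragments, 32 lay upstream of both zones, 6 between them and 3 downstream. The latter 3 began within 1.89 kb of the Hba-a2 zone, at chr11:32197599-32198003, chr11:32198229-32199492 and chr11:32199493-32200137, and are named after their values were seen.

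Between erythrocytes and DE, 1440 fragments were tested and 571 (39.7%) were called, 64 higher (4.44%) and 507 lower (35.2%). Chromosome 11 gave 36.5%, 2.17% and 34.3% of 3277 fragments. All interactions gave 2 higher and 723 lower, no minimum 41 and 0, edgeR 69 and 123, and DESeq2 72 and 60. Of the 64 higher fragments, 52 lay upstream of both zones and 8 between them. The 4 downstream of them were again the fragments next to the Hba-a2 zone, those named above and chr11:32198004-32198228.

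Among fragments more than 20 kb from the viewpoint, the largest rises lay in a stretch from HS-31 to HS-26. The HS-31 fragment chr11:32145279-32146566 had 87.1, 74.1 and 43.9 interactions in ESC, 55.4, 56.4 and 70.1 in DE, and 475, 317 and 300 in erythrocytes (2.27 from ESC, adjusted p = 0.016; 2.38 from DE, adjusted p = 0.019). Its neighbour chr11:32146903-32148395, which holds an Nprl3 exon and no GATA match, had 111, 137 and 122 in ESC, 116, 120 and 123 in DE, and 708, 655 and 477 in erythrocytes (2.21 from ESC, adjusted p = 0.016). The fragment of 42 bases printed above had 40.0, 57.9 and 43.9 in ESC, 35.0, 33.5 and 24.5 in DE, and 134, 307 and 255 in erythrocytes. The HS-26 fragment chr11:32148903-32149605 had 49.5, 60.8 and 56.1 in DE and 303, 398 and 411 in erythrocytes (2.53, adjusted p = 0.019).

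The largest falls lay outside Nprl3. The fragment chr11:32238150-32238686, between Hbq1a and Sh3pxd2b, had 167, 107 and 87.8 interactions in ESC and 7.66, 5.03 and 11.1 in erythrocytes (-2.83, adjusted p = 0.016). The Sh3pxd2b fragment chr11:32269292-32270168 had 42.4, 62.6 and 117 in ESC, 66.1, 51.1 and 36.8 in DE, and 7.66, 0 and 0 in erythrocytes (-2.70 from ESC, adjusted p = 0.016; -2.31 from DE, adjusted p = 0.019). The log2 difference of chr11:32246564-32246950 from ESC was -2.53, that of chr11:32230752-32232064 from DE was -2.31, and that of chr11:32100298-32100753, next to Il9r, from DE was -2.28. At such levels a single read in an erythrocyte library is worth several interactions, so zeros limit the size of these falls only loosely.

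Contact was lopsided in erythrocytes. At 20 to 50 kb from the zones, the upstream side, which holds Nprl3, had 178 ± 5.18 interactions per kb in ESC, 153 ± 6.12 in DE and 410 ± 87.6 in erythrocytes (SD, n = 3). The downstream side had 146 ± 7.14, 125 ± 7.52 and 58.2 ± 8.18. The upstream over downstream ratio was 1.20, 1.27 and 1.20 in ESC, 1.25, 1.17 and 1.25 in DE, and 5.38, 8.63 and 7.35 in erythrocytes. This ratio, too, does not depend on the scaling of a library, but the upstream gain does. Per 100000 interactions on all chromosomes, the upstream level was 99.1, 368 and 97.3 per kb in erythrocytes, 133, 123 and 114 in ESC, and 103, 102 and 92.8 in DE, so that only erythrocyte replicate 2 lay above ESC. The downstream level was below every other library on both scales. At 50 to 100 kb both sides were lower in erythrocytes than in ESC, the upstream side 0.774 of ESC and the downstream side 0.186, and the ratio was 8.12 ± 2.25 against 1.80 ± 0.0723 in ESC and 2.08 ± 0.171 in DE. The ratio was above all other libraries at 0 to 20 kb (1.72 against 1.22 and 1.11) and at 100 to 200 kb (1.93 against 1.34 and 1.46). Each of these differences in ratio between erythrocytes and the other cells stood at the smallest exact permutation p of 0.1. The levels per kb were not tested, and at 50 to 100 kb the upstream level of erythrocytes overlapped that of DE.

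The lean towards the upstream side ended beyond 200 kb. At 200 to 280 kb the ratio was 0.957, 0.705 and 0.650 in erythrocytes and 0.838, 0.786 and 0.860 in ESC, which overlapped (exact permutation p = 0.6), and 1.27, 1.21 and 1.17 in DE. Contact there was 3.53 interactions per kb upstream and 4.41 downstream in erythrocytes, against 21.5 and 26.1 in ESC.

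**Figure D4:**
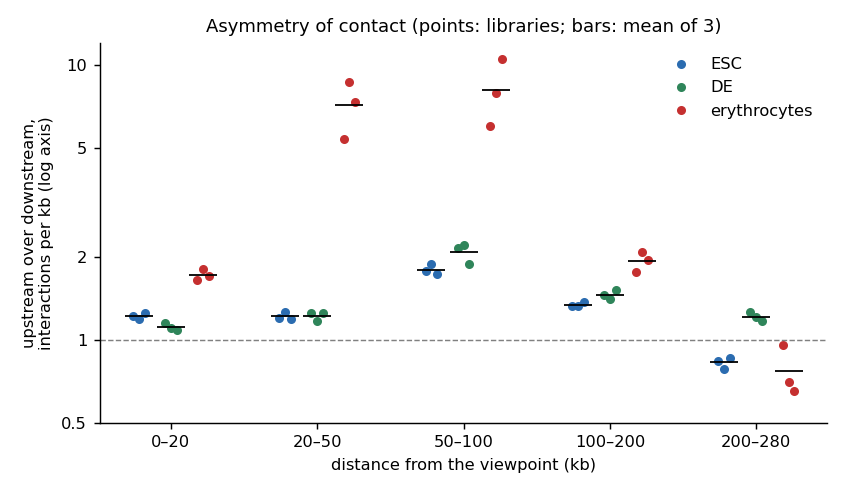
Ratio of interactions per kb upstream to downstream of the viewpoint in 5 distance classes, on a log axis; points are libraries, bars the mean of 3 and the dashed line an equal level on both sides. At 20 to 50 kb the 3 erythrocyte libraries lie between 5.38 and 8.63 and the other 6 between 1.17 and 1.27.

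The profiles of DE and ESC, cells that do not make haemoglobin, gave few calls for single fragments. Only 2 of the 1486 tested fragments (0.135%) were called, 0 higher and 2 lower in DE, against 0.0527% of 3797 on chromosome 11, 0 higher and 0.0527% lower, both calls being the window's. At an unadjusted p under 0.05 there were 215, with edgeR 23 and with DESeq2 33. The 2 fragments are named after their values were seen. The fragment chr11:32176156-32176202, just upstream of Hba-x, had 200, 160 and 180 interactions in ESC and 78.7, 86.3 and 78.8 in DE. The fragment chr11:32185214-32185292, between the zones, had 629, 568 and 531 in ESC and 324, 366 and 396 in DE. Neither call was made with TMM or DESeq2 scaling, where no fragment was called.

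Over the larger regions, 6 of the 14 flanking genes were lower in DE and none was higher, with a median log2 difference of -0.21. Of the 140 bins of 5 kb in the window, 15 were lower in DE and 0 higher. Of the lower bins, 6 lay upstream, 6 downstream and 3 at the zones or between them. Their log2 differences ran from -0.82 to -0.23. The bins overlap the genes and belong to the same fit. The fit called 0.837% of 3822 features, 0.262% higher and 0.576% lower, with a median of 0.16. The 6 genes were Il9r (-0.42), Nprl3 (-0.24), Hba-x (-0.33), Sh3pxd2b (-0.41), Ubtd2 (-0.43) and Stk10 (-0.40), each with its 3 DE libraries below the 3 of ESC. These are falls to between 0.742 and 0.848 of the ESC mean. The 6 calls went to 0 with TMM scaling, without a trended variance and with all 3 cell types in the fit, and to 1 without DE replicate 1, when only Sh3pxd2b was called. Hba-x lost its call without any 1 DE library. The share of chromosome 11 in the window was itself lower in DE. Within the window the shares of DE and ESC overlapped, and Nsg2, the farthest gene upstream, had more contact in every DE library than in any of ESC (0.24, adjusted p = 0.12), which was called under 4 of 22 alternatives.

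Among the elements only HS-26 was called between DE and ESC, lower in DE by 0.39 on the log2 scale (SE 0.10, adjusted p = 0.041), and 15 of 22 alternatives lost that call. The log2 differences of the other 4 lay between -0.25 and 0.09. Relative to their surroundings the 5 elements together had the same ratio in DE and ESC within the spread of the libraries (0.702 ± 0.0391 and 0.695 ± 0.0321, SD, n = 3, exact permutation p = 1).

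The promoter capture, made with the same Hba viewpoint, gave a like profile. Over the 140 bins of the window its values correlated with those of the enhancer capture of the same cell type and replicate number at r of 0.894 to 0.991, a description over bins that share the viewpoint and its neighbours. At the 5 elements the promoter capture gave 0.738 to 1.42 times the value of the enhancer capture in the 9 pairs. HS-31 had 174 ± 37.7, 141 ± 18.7 and 817 ± 84.6 interactions per 100000 on chromosome 11 in ESC, DE and erythrocytes there, and HS-26 had 786 ± 52.0, 648 ± 38.1 and 2346 ± 813 (SD, n = 3). Whether the captures started from the same cells is not given in the labels, so the promoter capture was not counted as further replicates.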

How the data were processed

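The authors digested crosslinked chromatin with DpnII, captured the viewpoints with oligonucleotides and mapped the reads with Capture-C scripts. The submitters' processing notes name Trim Galore and Bowtie and the mm9 build, without versions. The deposited signal per DpnII fragment was scaled by the authors to 100000 interactions per column over all chromosomes, and 6 columns per cell type (3 of each capture) were used, 18 in all. Whole reads were recovered from the steps of the signal, and 100% of values were whole within 0.05 of a read. Each column was rescaled to 100000 interactions on chromosome 11. A total of 80208 of 80209 listed fragments matched a DpnII digest of NCBIM37 (mm9), and genes came from gencode vM1.

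limma 3.58.1 (R 4.3.3, trended variance) was fitted to log2(value + 10) over all fragments, or all gene regions, elements and 5 kb bins, of chromosome 11 with at least 10 reads, with only the 6 libraries compared and Benjamini-Hochberg adjustment at 0.05. The deposited unit is a signal, so the count models edgeR 4.0.16 and DESeq2 1.42.0 were alternatives on recovered reads. For shares and ratios an exact permutation test over libraries, two-sided, was used. On simulated data with 200 features changed 4-fold, limma recovered 46% of fragments and 33% of regions for erythrocytes against ESC, 58% and 54.5% against DE, and 87% and 67% for DE against ESC. Replicates differed by more than sampling noise in each pair (chi-square over degrees of freedom of 1.79 to 14.3), so none was counted as a duplicate.

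Named were all protein-coding genes of the window, the 5 elements, and up to 3 rising and 3 falling fragments per comparison, called, without overlap and over 20 kb from the viewpoint. The window, the genes and the elements were chosen with earlier results of these data known. Contact with Hba-a1 and Hba-a2, planned as results, has no value. The other viewpoints were not analysed here.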

Additional observations from a re-analysis of the deposited data

How the results depend on the processing

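Scaling to all interactions ended the calls of the 5 elements and Nprl3 in both comparisons with erythrocytes, while Nsg2, Sh3pxd2b and Stk10 were called under all 22 alternatives, and the number of called fragments varied widely. Erythrocytes against ESC gave 433 called fragments, and 264 with edgeR, 97 with DESeq2, 28 with no minimum of reads, 246 with a minimum of 30 reads and 186 to 428 when a library was left out. Against DE the 571 became 192, 132 and 41 with edgeR, DESeq2 and no minimum, and 142 to 517 without a library. Of the flanking genes, 6 to 9 were called against ESC without a library (8 with all), and against DE 11 with DESeq2, 11 with the minimum of 30 reads and 5 to 10 without a library (6 with all). For DE against ESC the 2 called fragments became 9 when scaled to all interactions, 10 beyond 20 kb, 23 with edgeR, 33 with DESeq2, 4 with a pseudocount of 50, 25 with no minimum, 10 with the minimum of 30, 0 with TMM, DESeq2 size factors, a pseudocount of 2, no trend or all 3 cell types in the fit, and 0 to 8 without a library. Its 6 flanking genes became 0 with TMM, no trend or all 3 cell types, and 1 to 6 without a library. The cause of these differences was not tested. The median log2 difference of all regions and bins moved with the scaling, from -0.36 to -0.46 (all interactions), -0.21 (TMM) and -0.035 (DESeq2 size factors) against ESC, from -0.31 to -0.27, -0.47 and -0.17 against DE, and from 0.16 to 0.094, 0.21 and 0.15 for DE against ESC.

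With the replicate number as a block there were 416, 641 and 27 called fragments for erythrocytes against ESC, against DE, and DE against ESC, and 8, 8 and 7 called flanking genes. Whether the numbers pair the samples could not be settled. Deviations of same-numbered libraries correlated at only -0.124 to 0.156, and not every library correlated best with its own number. Weak correlations of noisy deviations cannot exclude a pairing.

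The window's share of chromosome 11 in erythrocytes minus DE, 8.19 points, turned to -0.98 beyond 20 kb and to -7.95 with all interactions as the total. Minus ESC, -2.37 points, it was -11.4 beyond 20 kb without overlap (exact permutation p = 0.1), -17.5 with all interactions, and -5.10 to 1.09 without a library, with 1.09 without erythrocyte replicate 1. The globin zone share in DE minus ESC, -0.105 points, was -0.983 to 0.349 without a library and -2.97 with chromosome 11 as the total, without overlap (exact permutation p = 0.1). With that total, erythrocytes minus ESC went from 16.2 to 9.33 points and minus DE from 16.3 to 12.3, all still without overlap. The mean upstream level at 20 to 50 kb, rescaled to all interactions by a choice made after seeing the data, exceeded ESC by 64.9 per kb in place of 232, and DE by 89.1 in place of 257. That excess rests on erythrocyte replicate 2, with 368 per kb. Replicates 1 and 3, with 99.1 and 97.3, lay below every ESC library and within the range of DE, 92.8 to 103.

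Signs turned for regions not called at the scaling used in the report, and after turning, Rhbdf1 and Hba-x were called higher against ESC with DESeq2 size factors (adjusted p = 0.041 and 0.019). On the log2 scale against ESC, scaling beyond 20 kb gave 0.12 for Snrnp25 and 0.16 for Hba-x, TMM 0.41 for Snrnp25, 0.29 for Rhbdf1 and 0.46 for Hba-x, DESeq2 size factors 0.84, 0.73 and 0.90 for these 3, and all interactions -0.39 for Mpg, -0.40 for Hbq1b and -0.28 for Hbq1a. Subtracting the trans level, chosen after seeing the data, gave 0.023 for Snrnp25 and 0.063 for Hba-x, and edgeR and DESeq2 gave 0.068 and 0.044 for Snrnp25. Against DE, scaling beyond 20 kb gave 0.16 for Snrnp25 and 0.16 for Rhbdf1, size factors 0.45 and 0.46, and edgeR and DESeq2 0.038 and 0.0093 for Snrnp25. All interactions and TMM gave -0.13 and -0.13 for Mpg, -0.48 and -0.49 for Hba-x, -0.17 and -0.17 for Hbq1b, and -0.19 and -0.19 for Hbq1a. For DE against ESC, all interactions and scaling beyond 20 kb gave -0.043 and -0.044 for Snrnp25 and -0.088 and -0.090 for Hbq1a, size factors -0.010 for Hbq1a, and TMM 0.11 for Rhbdf1, 0.014 for Mpg, 0.047 for Hbq1b and 0.18 for Fbxw11. Without a library, Snrnp25 ranged from -0.29 to 0.32 against ESC, from -0.33 to 0.27 against DE and from -0.038 upwards for DE against ESC, Rhbdf1 from -0.43 to 0.063 against ESC and from -0.35 to 0.14 against DE, Hba-x up to 0.10 against ESC, and, for DE against ESC, Hbq1a from -0.040 to 0.033, Fbxw11 from -0.075 to 0.068 and HS-12 from -0.0071 upwards.

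Depth limits single fragments most: erythrocyte replicate 3 had 5865 reads in the window, 1 read being worth about as much as the whole level of many distant fragments. Contact with Hba-a1 and Hba-a2 gave no value under any setting. Leaving out a library brings a group to 2, whose spread is then pooled with that of the other group. Strain cannot be told apart from cell type in any comparison with erythrocytes.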
